A study of Homo sapiens with 9 samples.

Results

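The islands described here lie on the short arm of human chromosome 5, from 4 to 46 Mb of hg19. An island is a stretch of the genome called as enriched for a histone mark. Every island on chromosome 5 whose midpoint fell between these limits was taken, which gave 1567 of the 141489 islands of the series. The segment spans 42 Mb and was chosen by the KO and WT covered length of the marks in 2 Mb bins of these same files. Differences between the genotypes within it are therefore a description, and no test was run. The nearest island outside the lower limit had its midpoint 121.8 kb below it (H3K27me3 in KO, chr5:3869001-3887400), and the nearest inside had its midpoint 4.6 kb above it (H3K9me3 in WT, chr5:4001601-4007600). At the upper limit the last island inside had its midpoint 109.6 kb below 46 Mb (H3K9me3 in KO, chr5:45889601-45891200), and no island of any mark followed before the long arm. The gap of the assembly at the centromere runs from 46405642 to 49405641.

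The study mapped histone marks by ChIP-seq in BEAS-2B, an immortalized line of human bronchial epithelial cells. The KO cells had lost mdig (RIOX2, also mina53) after CRISPR-Cas9 and expressed no mdig protein. The WT cells were colonies that had gone through the same procedure with normal mdig protein. Both were cultured with blasticidin at 2 ug/ml. There were 9 libraries, which are H3K4me3, H3K27me3, H3K9me3 and H3R8me2a in KO and in WT cells and 1 input of WT cells, with 1 library per mark and genotype. Nothing in the labels says whether a KO library came from 1 colony or several. The input has no islands, and without an input of KO cells a change in the DNA content of the segment cannot be told apart from a change in a mark.

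H3K4me3 marks active and poised promoters, H3K27me3 is laid down by the Polycomb repressive complex over silent developmental genes, and H3K9me3 is the mark of constitutive heterochromatin, of satellite repeats and of many zinc finger genes. H3R8me2a is asymmetric dimethylation of an arginine next to lysine 9, deposited by arginine methyltransferases, and its role is less settled. The short arm of chromosome 5 holds the genes of several cytokine receptors, a row of type II cadherin genes in a gene-poor stretch and many genes of cytoskeleton and translation. Loss of its outer part underlies cri du chat syndrome, and extra copies of the arm are common in lung carcinoma.

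The promoters below are examples of differences between the genotypes in the segment, and not the largest ones. Each is given as the 250 bases before the annotated start of the gene, 5′ to 3′ on the strand of the gene, read from GRCh37 (the same build as hg19), with every match of GGGCGG or its reverse complement CCGCCC, the GC box, in capitals. The first 4 carried H3K4me3 within 2 kb of the start in WT alone. So did CFAP90, MTRR, SEMA5A and TAF11L2, which are not shown. CDH12 carried it in KO alone, over only 0.8 kb. RAI14 kept H3K4me3 in both genotypes and had no H3R8me2a in KO.
UBE2QL1, chr5:6448722-6448971, plus strand: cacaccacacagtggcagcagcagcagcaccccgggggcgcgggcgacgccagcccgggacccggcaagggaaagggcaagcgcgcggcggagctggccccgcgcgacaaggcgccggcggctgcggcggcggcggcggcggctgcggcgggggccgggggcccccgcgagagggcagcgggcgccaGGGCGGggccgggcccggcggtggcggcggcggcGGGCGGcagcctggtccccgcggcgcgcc
CDH6, chr5:31193543-31193792, plus strand: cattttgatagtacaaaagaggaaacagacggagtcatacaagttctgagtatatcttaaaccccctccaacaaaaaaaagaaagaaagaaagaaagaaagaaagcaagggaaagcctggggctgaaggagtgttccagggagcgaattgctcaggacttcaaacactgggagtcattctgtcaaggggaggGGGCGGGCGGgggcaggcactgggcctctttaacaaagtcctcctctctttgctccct
PLCXD3, chr5:41510704-41510953, minus strand: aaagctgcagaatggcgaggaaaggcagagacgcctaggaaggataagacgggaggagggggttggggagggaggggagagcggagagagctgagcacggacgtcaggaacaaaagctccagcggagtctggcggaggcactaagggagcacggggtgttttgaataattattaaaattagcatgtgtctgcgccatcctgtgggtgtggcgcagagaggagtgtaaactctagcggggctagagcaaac
FGF10, chr5:44389809-44390058, minus strand: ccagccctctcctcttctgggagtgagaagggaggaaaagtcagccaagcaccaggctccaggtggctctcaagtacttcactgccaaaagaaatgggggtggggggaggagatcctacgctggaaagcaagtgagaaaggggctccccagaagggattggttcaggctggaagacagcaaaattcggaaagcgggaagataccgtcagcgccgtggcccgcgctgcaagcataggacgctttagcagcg
CDH12, chr5:22853454-22853703, minus strand: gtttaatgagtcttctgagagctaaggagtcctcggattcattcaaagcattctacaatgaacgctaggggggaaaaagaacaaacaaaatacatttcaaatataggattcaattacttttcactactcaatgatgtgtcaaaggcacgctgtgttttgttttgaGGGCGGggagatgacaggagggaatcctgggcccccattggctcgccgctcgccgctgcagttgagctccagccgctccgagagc
RAI14, chr5:34656183-34656432, plus strand: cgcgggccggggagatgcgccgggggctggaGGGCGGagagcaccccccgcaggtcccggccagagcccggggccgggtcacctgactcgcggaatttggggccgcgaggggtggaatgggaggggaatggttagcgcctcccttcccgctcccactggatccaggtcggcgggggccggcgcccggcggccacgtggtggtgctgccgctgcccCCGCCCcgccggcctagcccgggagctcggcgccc

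The GC box was present in 61 of the 125 coding promoters of the segment (48.8%), and in 48.8% of all 20098 coding promoters of this length. UBE2QL1, with 85.6% G and C and 43 CG pairs, held 2 of them, RAI14 held 2, CDH6 held 2 that share bases, CDH12 held 1, and PLCXD3 and FGF10 held none. Among the segment's promoters with H3K4me3 in both genotypes 44 of 73 held it (60.3%), against 4 of 8 of those with H3K4me3 in WT alone and 12 of 43 of those with none in either (27.9%). These matches describe the letters of the window and say nothing of a bound factor.

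H3R8me2a was the mark that differed most. Its islands covered 417.8 kb of the segment in KO and 2370.6 kb in WT, a KO/WT ratio of 0.176, whereas the ratio was 0.868 on the long arm, with 2583 kb in KO and 2977.4 kb in WT, and 1.61 over the whole series. H3K9me3 covered 2340.2 kb in KO and 2047.6 kb in WT (ratio 1.14), against a ratio of 2.34 on the long arm and of 3.69 over the series. H3K4me3 covered 847.6 kb in KO and 944 kb in WT (ratio 0.898), against 1.05 on the long arm and 1.15 over the series. H3K27me3 covered 4386.2 kb in KO and 3502.6 kb in WT (ratio 1.25), close to the long arm's 1.22, and 1.33 over the series. Divided by the ratio of the long arm, the segment's ratio was thus 0.203 for H3R8me2a, 0.488 for H3K9me3, 0.854 for H3K4me3 and 1.03 for H3K27me3. When KO and WT were brought to one total of island length for each mark, the ratio of H3K9me3 in the segment became 0.309 and that of H3K27me3 0.939, so that both turned below 1. Without replicates or island heights, neither the spread of these ratios nor the depth behind an island is known, and more permissive calling in one library cannot be told apart from more of a mark.

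The first 4 Mb of the arm, outside the segment, were unlike it in H3K9me3, with 1686.8 kb in KO and 609.4 kb in WT (ratio 2.77), and less extreme in H3R8me2a, with 575.2 kb in KO and 801 kb in WT (ratio 0.718).

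Set beside the other 40 chromosome arms of 1 to 22 and X, the segment had the lowest KO/WT ratio of all 41 in both H3R8me2a and H3K9me3, the third lowest in H3K4me3 and the sixteenth lowest in H3K27me3. The segment leaves out the first 4 Mb, while the other arms are whole, and over the whole short arm the ratio was 0.313 for H3R8me2a and 1.52 for H3K9me3, both above those of 18q, so that the whole arm was the lowest in neither. For H3K9me3 the KO level was below the median of the other arms and ranked 12 of 41 from the lowest. Islands covered 5.57% of the segment in KO and 4.88% in WT, where the medians of the other arms were 7.44% in KO and 1.82% in WT, and the WT value was the third highest of 41. For H3R8me2a, 0.995% of the segment was covered in KO and 5.64% in WT, with medians of 2.89% in KO and 1.62% in WT over the other arms. Its WT value was the fifth highest and its KO value the ninth lowest. The segment thus stood high in WT for both marks. The arm nearest to it in ratio was 18q, with 0.193 in H3R8me2a and 1.35 in H3K9me3. At the other extreme stood 3p, with 11.9 in H3R8me2a and 10.8 in H3K9me3. Large shifts of opposite direction thus also occurred on other arms.

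**Figure D1:**
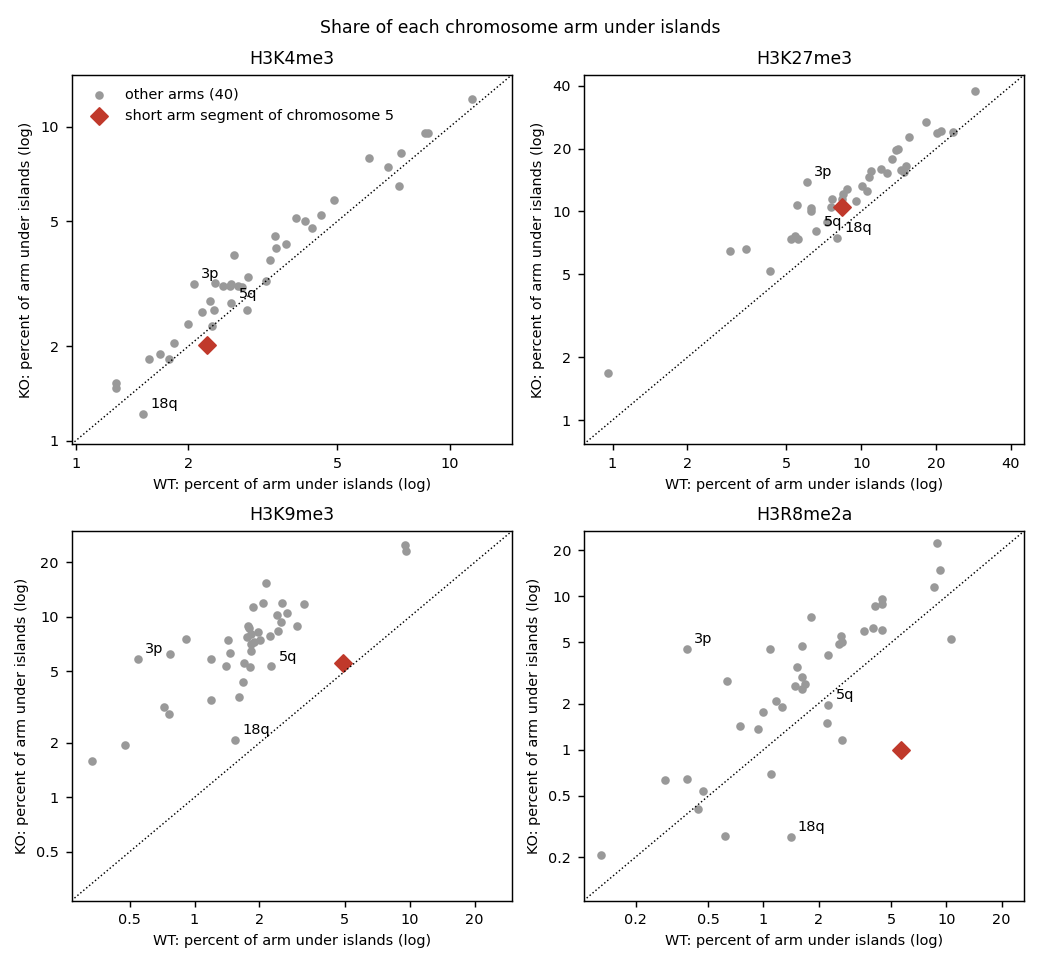
Percent of each chromosome arm under islands, KO on the vertical and WT on the horizontal axis (both log scale), for each mark. The diamond is the short arm segment of chromosome 5, points are the other 40 arms, and the dotted line marks equal coverage. For H3R8me2a the segment lies far below the line (0.995% in KO and 5.64% in WT), and for H3K9me3 it lies to the right of most arms and close to the line (5.57% in KO and 4.88% in WT).

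The difference in H3R8me2a came from absent islands more than from shorter ones. There were 25 H3R8me2a islands in KO and 121 in WT. None of the 25 KO islands lay apart from WT islands, where 48.2% of KO islands of the whole series did. Of the 121 WT islands, 95 shared no base with a KO island (28.2% of WT islands over the series). Their median length was 16.2 kb, and the longest were 70 kb over TRIO (chr5:14316201-14386200), 64.6 kb reaching over SLC1A3 (chr5:36682801-36747400) and 59.4 kb over RAI14 (chr5:34645601-34705000). TRIO is a guanine nucleotide exchange factor, SLC1A3 a glutamate transporter and RAI14 an actin-binding protein.

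H3K9me3 had islands of its own in both genotypes. Of 337 KO islands 124 lay apart from WT islands (69.9% over the series), and of 365 WT islands 143 lay apart from KO islands (12.5% over the series). In covered length, 1204.6 kb were new in KO, 912 kb were found in WT alone and 1135.6 kb in both. The net ratio near 1 thus stood over a large exchange of positions. Of the H3K9me3 found in WT alone, 92.2% had no island of any of the 4 marks in KO (96.7% on the long arm). The longest H3K9me3 islands found in KO alone were 21.2 kb in an intergenic stretch (chr5:6342601-6363800) and 20.8 kb in PDZD2 (chr5:31788001-31808800), and the longest in WT alone were 15 kb and 13.8 kb, both in FBXL7, an F-box protein of ubiquitin ligases.

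For H3K27me3, 59 of 209 KO islands (30.6% over the series) and 66 of 234 WT islands (14.2% over the series) lay apart from the other genotype. The longest in KO alone, of 66 kb (chr5:37982201-38048200), lay under no coding gene, and the next, of 50.8 kb and 48.2 kb, lay in EGFLAM. For H3K4me3 only 4 of 125 KO islands did (9.16% over the series), against 29 of 151 WT islands (6.75% over the series).

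Along the arm, H3R8me2a was shorter in KO in 14 of 21 bins of 2 Mb and longer in none, and the other 7 bins had no island in either genotype. The share of long arm bins with less in KO was 61.5%. The widest gap was in the bin from 34 to 36 Mb, which holds RAI14 and IL7R, with 0 kb in KO and 338.2 kb in WT. It was followed by the bin from 14 to 16 Mb, which holds TRIO, with 91.8 kb in KO and 395.2 kb in WT. H3K4me3 was shorter in KO in 17 bins (30.8% of long arm bins), with 80.6 kb in KO and 96.8 kb in WT from 36 to 38 Mb as an example. H3K9me3 was shorter in KO in 10 bins (10.8% on the long arm) and H3K27me3 in 8 (13.8% on the long arm), 47.6% and 38.1% of the segment's bins. At one total of island length these became 95.2% for H3K9me3 and 66.7% for H3K27me3. The long arm bins were not counted at one total.

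The 4 marks changed along the arm in different ways, which is summarized in stretches split after the values were seen. From 4 to 18 Mb, with 47 coding genes, the KO/WT ratio was 1.93 for H3K9me3, 1.22 for H3K27me3, 0.975 for H3K4me3 and 0.312 for H3R8me2a. From 18 to 30 Mb, a gene desert with 5 coding genes, it was 0.691 for H3K9me3, 0.677 for H3K27me3 and 0.873 for H3K4me3. H3R8me2a was all but missing there, with 0 kb in KO and 3.6 kb in WT. From 30 to 46 Mb, with 73 coding genes, it was 0.978 for H3K9me3, 1.71 for H3K27me3, 0.846 for H3K4me3 and 0.0664 for H3R8me2a, the last from 86.8 kb in KO and 1306.8 kb in WT. The H3K27me3 excess of the inner stretch lay mostly in the bin from 38 to 40 Mb, with 338 kb in KO and 17.2 kb in WT. By bins, H3K9me3 was longer in KO in 6 of 7 in the outer stretch and in 3 of 6 in the middle one. In the inner stretch it was shorter in KO in 6 of 8, by very unlike amounts. These ran from 149.2 kb in KO and 150 kb in WT (38 to 40 Mb) to 156.4 kb in KO and 211.2 kb in WT (34 to 36 Mb).

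**Figure D2:**
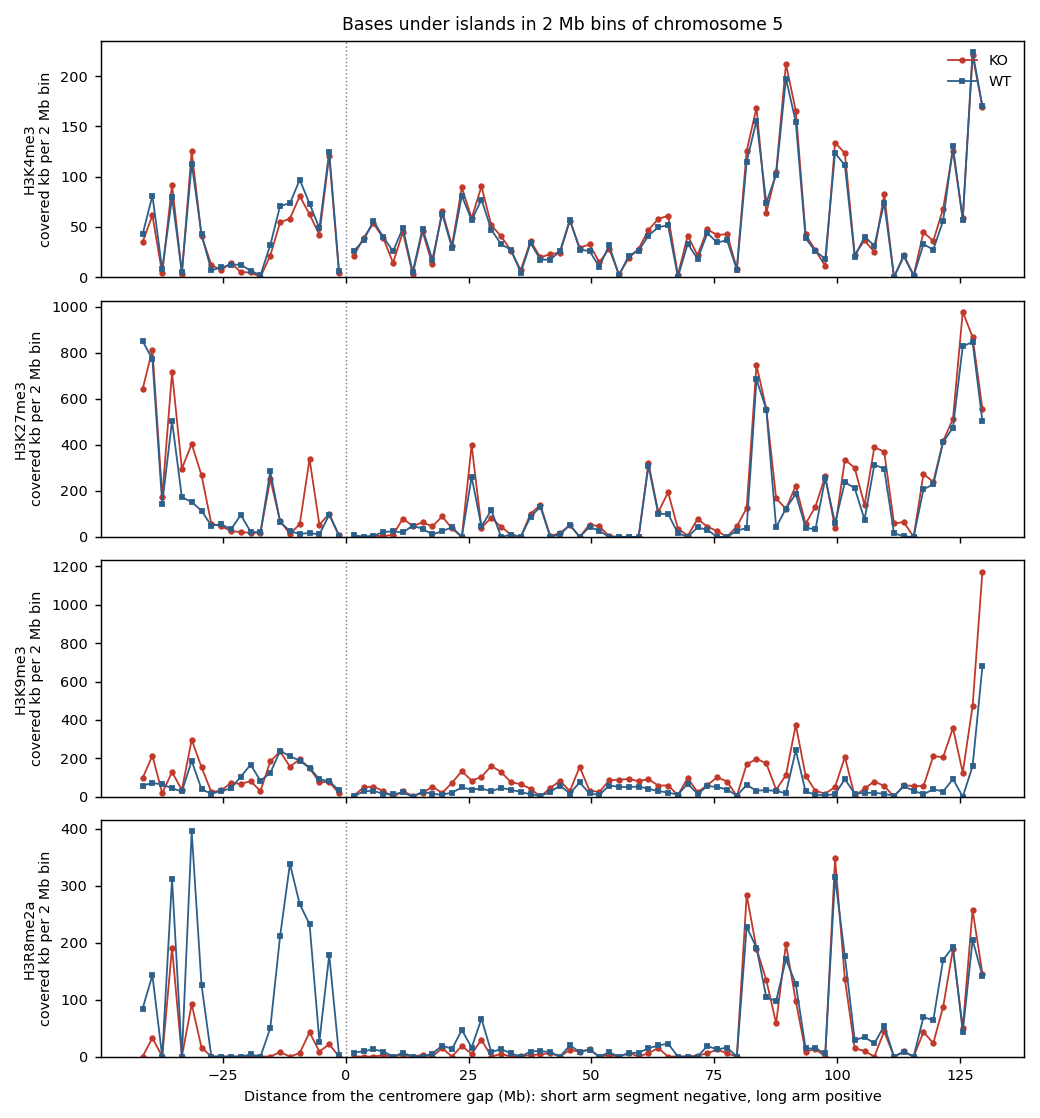
Bases under islands in each 2 Mb bin of chromosome 5, in kb, for KO (circles) and WT (squares), against distance from the centromere gap in Mb, negative on the short arm segment and positive on the long arm. In the bottom panel the WT line of H3R8me2a stands above the KO line in 14 of 21 bins of the segment. On the long arm it does so in 40 of 65 bins, with narrower gaps. The widest there is 87 kb in KO and 169.8 kb in WT, from 170 to 172 Mb.

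The H3R8me2a that was present in WT and absent in KO amounted to 1993.4 kb, and 377.2 kb were kept. Of the bases found in WT alone, 60.0% lay in bodies of coding genes, 18.7% lay under H3K4me3 in KO, and 65.6% had no island of any mark in KO. Of the kept bases, 76.7% lay in gene bodies and 59.2% under H3K4me3 in KO. What remained of H3R8me2a in KO thus lay more over H3K4me3 than what did not. The long arm had the same order, with 57.7% of kept bases and 37.8% of those in WT alone under H3K4me3 in KO. Of the 1620.4 kb of H3K27me3 found in KO alone, 92.3% had no island of any mark in WT (95.1% on the long arm). A share of 4.16% lay under WT H3R8me2a (0.722% on the long arm).

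At the level of genes, islands were summed over each gene body and 5 kb upstream of it. A call of gain required 2 times the WT bases or more and a surplus of 1 kb or more in KO, and a call of loss the same with the genotypes exchanged. In 125 coding genes of the segment, H3R8me2a was lost in 59 (8.05% of all 20098 coding genes) and gained in 1 (20.0% of all), and 69 genes of the segment had any H3R8me2a in WT. H3K9me3 was gained in 21 (27.6%) and lost in 8 (0.876%). At one total of island length, H3K9me3 was gained in 7 and lost in 41, and H3K4me3 was gained in 0 and lost in 9. These counts were not made over all coding genes, so the shares in brackets are no background for them. H3K27me3 was gained in 12 (6.50%) and lost in 8 (3.29%). H3K4me3 was gained in 1 (4.10%) and lost in 5 (2.01%). The contrast that chose the segment is the one behind these calls, so they are given as a description. Neighbouring genes share islands, so that a gene is not an independent observation.

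**Figure D3:**
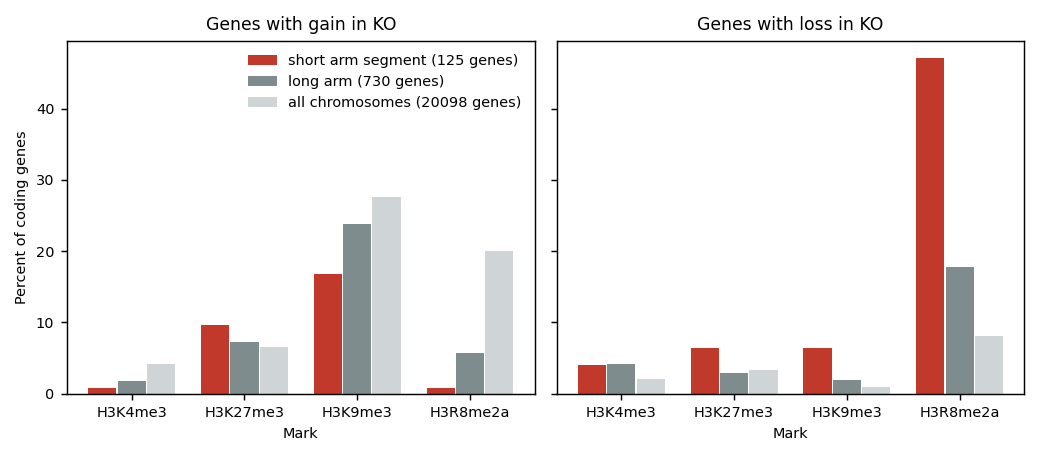
Percent of coding genes with a gain (left) or a loss (right) in KO for each mark, in the short arm segment, on the long arm of chromosome 5 and on all chromosomes. H3R8me2a was lost in 59 of 125 genes of the segment, and the gain of H3K9me3 and H3R8me2a was less frequent in the segment than over all chromosomes.

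Some genes with long H3R8me2a in WT were placed in a list of regulators of the cytoskeleton. The list was made with these results known, so that 4 of the 5 largest losses fall in it is no finding about such genes. TRIO (chr5:14143451-14532237) had 89.6 kb in KO and 290.35 kb in WT. This is 22.8% of its region in KO and 73.7% in WT, while its H3K4me3 was nearly equal at 66.2 kb in KO and 68.2 kb in WT. RAI14 (chr5:34656433-34832717) had no H3R8me2a in KO and 74.9 kb in WT, with 10 kb of H3K4me3 in KO and 9.6 kb in WT. MYO10, the motor of filopodia, had 0 kb in KO and 50.4 kb in WT. BASP1, a membrane-bound regulator of actin in growth cones, had 5.4 kb in KO and 50.8 kb in WT. DAB2, an endocytic adaptor, had 0 kb in KO and 19.8 kb in WT. In the list of 8 regulators of the cytoskeleton H3R8me2a was lost in 6, which are TRIO, MYO10, RAI14, BASP1, PDZD2 and DAB2, and the other 2, CTNND2 and FYB1, had none in either genotype. Over the segment it was lost in 59 of the 69 genes that had it in WT, so a loss in all 6 that had it is near the share of the segment. Differences in kb were not adjusted for gene length, and several genes of the list are long, with regions of 393.8 kb for TRIO, 476.8 kb for PDZD2 and 279.4 kb for MYO10. The median difference of the list, which was made with these results known, was −47.9 kb. It was −2 kb over all 125 genes and −11.65 kb over the 69 with an H3R8me2a island in either genotype.

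Several of these genes had H3K9me3 of the opposite direction. PDZD2, a protein with many PDZ domains, had 170.8 kb of H3K9me3 in KO and 55.2 kb in WT, the largest H3K9me3 gain of the segment, with 0 kb of H3R8me2a in KO and 55.6 kb in WT. MYO10 had 27.4 kb of H3K9me3 in KO and 6 kb in WT, and BASP1 22.5 kb in KO and 5.89 kb in WT. TRIO, with 45.95 kb in KO and 23 kb in WT, did not reach the factor of 2. RAI14 went the other way, with 22.4 kb in KO and 26.8 kb in WT. Of the 59 genes with H3R8me2a loss, 10 had an H3K9me3 gain and 5 an H3K9me3 loss. The remaining 66 genes included 11 with H3K9me3 gain and 3 with H3K9me3 loss, so the proportions with a gain were close.

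Of the 5 receptors of type I cytokines, all but GHR had less H3R8me2a and shorter H3K9me3 in KO. IL7R, the interleukin 7 receptor of lymphocytes (chr5:35852797-35879705), had 0 kb of H3R8me2a in KO and 21.1 kb in WT, and 1.00 kb of H3K9me3 in KO and 15.5 kb in WT. Its H3K4me3 differed little, at 11 kb in KO and 10.6 kb in WT. PRLR, the prolactin receptor, had 0 kb of H3R8me2a in KO and 21.989 kb in WT, 6.8 kb of H3K9me3 in KO and 23 kb in WT, and 0 kb of H3K27me3 in KO and 8 kb in WT. OSMR, the oncostatin M receptor, kept 10.2 kb of H3R8me2a in KO, against 42.4 kb in WT, and had 23.4 kb of H3K9me3 in KO and 35.2 kb in WT. LIFR, the receptor of leukemia inhibitory factor, had 0 kb of H3R8me2a in KO and 28.1 kb in WT. GHR, the growth hormone receptor, had no H3R8me2a or H3K9me3 in either genotype but had 21.2 kb of H3K27me3 in KO and 48.4 kb in WT. H3R8me2a was thus lost in 4 of the 5, all 4 that had it in WT, beside 59 of 69 such genes over the segment. H3K9me3 was shorter in KO in 4 and lost in 2, the 4 being all that had it. Among the 68 genes of the segment with an H3K9me3 island in either genotype, it was shorter in 23 and lost in 8. All 5 receptors lie in the inner stretch from 30 to 46 Mb, where H3K9me3 was shorter in KO in 6 of 8 bins. Their list was made with these results known, so a trait of such receptors cannot be told apart from one of the stretch. The median H3K9me3 difference of the 5 receptors was −11.8 kb. It was 0 kb over all 125 genes and 1.4 kb over the 68 with an H3K9me3 island in either genotype.

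Genes of matrix remodelling and guidance were mixed. ADAMTS12, a secreted metalloprotease, had 0 kb of H3R8me2a in KO and 51.5 kb in WT, and its H3K4me3 was 7 kb in KO and 13.8 kb in WT. ADAMTS16, a related protease, had 0 kb of H3R8me2a in KO and 32.6 kb in WT, and 48.0 kb of H3K9me3 in KO and 33.6 kb in WT. SEMA5A, a semaphorin of axon guidance, had less of 3 marks in KO. It had 0 kb of H3K4me3 in KO and 2.6 kb in WT, 28.2 kb of H3K27me3 in KO and 68.8 kb in WT, and 0 kb of H3K9me3 in KO and 12.6 kb in WT.

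Genes of translation, RNA processing and replication had less H3R8me2a around promoters that kept H3K4me3. All 17 of the list had H3R8me2a in WT and less in KO, and 15 were called a loss, near the 59 of 69 over the segment. An H3K4me3 island lay within 2 kb of the start in 16 of 17 in KO and in the same number in WT. H3R8me2a lay there in 4 in KO and 16 in WT. Over the gene regions H3K4me3 was shorter in KO in 11 and longer in 5. Its median difference was −0.8 kb, beside −0.6 kb over the segment's genes with an H3K4me3 island. NIPBL, the loader of cohesin, had 0 kb of H3R8me2a in KO and 15.1 kb in WT. SKP2, which recognizes substrates of a ubiquitin ligase of the cell cycle, had 0 kb in KO and 18 kb in WT. DROSHA, the nuclease that cuts primary microRNAs, had 0 kb in KO and 10.1 kb in WT, and 0 kb of H3K9me3 in KO and 8.4 kb in WT. CCT5, a chaperonin subunit, and RPL37, a ribosomal protein, were not called, with 19.6 kb in KO and 20.1 kb in WT for CCT5 and 8.8 kb in KO and 11.2 kb in WT for RPL37. The 17 genes had a median H3R8me2a difference of −11.4 kb.

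The other lists with H3R8me2a had counts that can be read against the 59 losses among 125 genes of the segment (47.2%), or among 69 with the mark in WT. It was lost in all 3 growth signalling genes (RICTOR, PRKAA1 and NIM1K), in 5 of 8 metabolic genes such as HMGCS1, an enzyme of sterol synthesis with 0 kb in KO and 29.2 kb in WT, in 3 of 4 genes of extracellular proteases and matrix and in 4 of 7 receptors, channels and transporters. SLC1A3 among these had 0 kb in KO and 41.8 kb in WT. In the cilia list it was lost in 3 of 5 and gained in 1. That gene, ROPN1L, which encodes a protein of the radial spokes of cilia and sperm tails, was the single gain of the segment, with 24.8 kb in KO and 6.34 kb in WT. ATPSCKMT, a mitochondrial lysine methyltransferase, and ANXA2R, the annexin A2 receptor, were the only others with more in KO, with 12.4 kb in KO and 8.61 kb in WT and with 6.07 kb in KO and 4.27 kb in WT. The lists were made with results of these data known.

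At the promoters, H3R8me2a lay within 2 kb of the start of 16 genes in KO and 51 in WT. All 16 were among the 51, so 35 had it in WT alone (5.36% of all coding genes) and none in KO alone (13.1% of all). H3R8me2a was lost in 39 of 237 long noncoding RNA genes of the segment and gained in 1, against 4.19% lost and 8.86% gained among all 18592 such genes. SLC1A3-AS1 had the longest difference, with 0 kb in KO and 56.8 kb in WT, and OSMR-DT had 8.93 kb in KO and 49.7 kb in WT. Antisense transcripts overlap their coding partners, divergent ones share the stretch around the start with theirs, and islands have no strand. These values are therefore not wholly separate from those of SLC1A3 and OSMR.

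**Figure D4:**
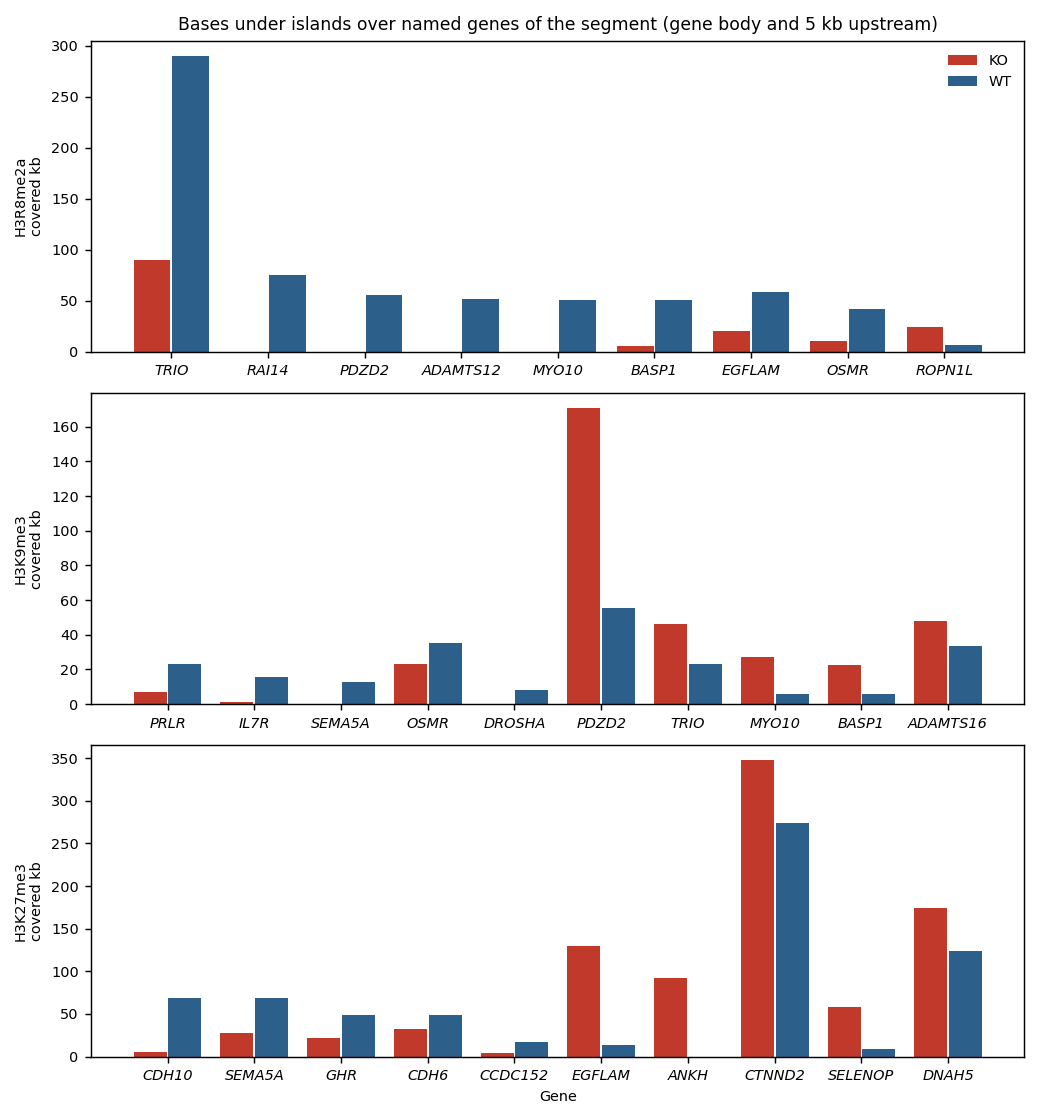
Bases under islands over gene body and 5 kb upstream, in kb, for genes of the segment in KO (left bar) and WT (right bar). The panels show H3R8me2a, H3K9me3 and H3K27me3. RAI14, PDZD2, ADAMTS12 and MYO10 have no H3R8me2a bar in KO, while PDZD2 has its longest H3K9me3 in KO.

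H3K27me3 was longer in KO over single genes along the arm. EGFLAM, an extracellular matrix protein of the retina and muscle (chr5:38258511-38465582), had 129.29 kb in KO and 13.6 kb in WT, or 61.0% of its region in KO and 6.41% in WT. It also had 20.8 kb of H3R8me2a in KO and 58.2 kb in WT. ANKH, a transporter that exports pyrophosphate, had 92.7 kb of H3K27me3 in KO and 0 kb in WT. SELENOP, the selenium carrier of plasma, had 58.7 kb in KO and 8.29 kb in WT. C7, a component of the terminal complement complex, had 40 kb in KO and 0 kb in WT, while the neighbouring C6 had no island of any mark in either. CTNND2, a catenin of neurons, with 347.6 kb in KO and 274.3 kb in WT, and DNAH5, a dynein of cilia, with 174.0 kb in KO and 123.8 kb in WT, had more in KO but did not reach the factor of 2. The long noncoding gene LINC02119 had 122.35 kb in KO and 0 kb in WT.

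The type II cadherins, adhesion proteins of neurons and epithelia, of which 4 lie in the gene desert and CDH6 just past it, had less H3K27me3 in KO in 4 of 5. CDH10 had 5.4 kb in KO and 68.6 kb in WT, the largest loss of the segment, while its H3K4me3 was 3.2 kb in KO and 2.8 kb in WT. Within 2 kb of its start, however, H3K27me3 was 4 kb in KO and 2.91 kb in WT, so the loss lay away from the start. CDH6 had 32.8 kb in KO and 49.0 kb in WT, CDH12 45.9 kb in KO and 55.7 kb in WT, and CDH18 29.6 kb in KO and 41.8 kb in WT. These 3 were not called, and CDH9 had no H3K27me3 in either. None of the 5 had H3R8me2a in either genotype. CCDC152, a coiled-coil gene that overlaps SELENOP at its end, had 3.6 kb in KO and 17.4 kb in WT, so that loss and gain lay side by side there.

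H3K4me3 lay at the promoters of 74 genes in KO and 81 in WT, 73 of them shared. Over the regions of these 73 genes it was shorter in KO in 46, longer in 23 and equal in 4, with a median difference of −0.6 kb. On the long arm it was shorter in KO in 174 and longer in 260 of 468 such genes. The 8 genes with H3K4me3 at the promoter in WT alone (1.55% of all coding genes) were UBE2QL1, CFAP90, MTRR, SEMA5A, TAF11L2, CDH6, PLCXD3 and FGF10, and CDH12 had it in KO alone (1.24% of all). UBE2QL1, a ubiquitin-conjugating enzyme, had 0 kb in KO and 2.97 kb in WT, with H3K27me3 over the promoter in both. CDH6, a cadherin of the kidney, had 0 kb in KO and 3 kb in WT, and FGF10, a growth factor of the lung mesenchyme, 0 kb in KO and 1.6 kb in WT. PLCXD3, a phospholipase-like protein, had 0 kb in KO and 2.2 kb in WT. CDH12 had 0.8 kb in KO and 0 kb in WT. H3K27me3 covered these promoters in both genotypes, with 4 kb of 4 in KO at CDH6, PLCXD3, FGF10 and CDH12, and 2.77 kb in KO and 4 kb in WT at UBE2QL1.

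CFAP90 and MTRR share a divergent promoter, so their loss is 1 loss of about 3.5 kb of H3K4me3. MTRR, the enzyme that restores methionine synthase, kept 8.4 kb of H3K4me3 elsewhere in its region in KO, against 12.6 kb in WT. The kept 8.4 kb lay in the region of FASTKD3, a gene within MTRR on the other strand. FASTKD3 had 8.4 kb in both genotypes, with 4 kb around its start in both. Around the annotated start of MTRR, H3K9me3 covered 4 kb in KO and 0 kb in WT. Other starts of MTRR were not examined, so a loss at all of its promoters is not shown. TAF11L2 is 1 of a family of near-identical copies, so reads could be placed among them and its 0.539 kb in WT is uncertain. The 5 largest differences by length with less in KO were in PDZD2, with 10.6 kb of H3K4me3 in KO and 20.4 kb in WT, ADAMTS16, with 21.6 kb in KO and 28.8 kb in WT, ADAMTS12, with 7 kb in KO and 13.8 kb in WT, UBE2QL1, with 0 kb in KO and 5.2 kb in WT, and CMBL, a hydrolase, with 7.2 kb in KO and 11.8 kb in WT. Of these, UBE2QL1 alone was called a loss. ANKRD33B, with 22.6 kb in KO and 18.6 kb in WT, DAP, a regulator of autophagy, with 20.7 kb in KO and 16.8 kb in WT, CCT5, with 10.8 kb in KO and 8 kb in WT, BASP1, with 10.2 kb in KO and 7.4 kb in WT, and ICE1, a subunit of a complex for small nuclear RNA transcription, with 13.2 kb in KO and 11 kb in WT, were the 5 with the most in addition in KO, and none of them was called a gain.

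At promoters, the repressive marks were found in 1 genotype alone in few genes, mostly near the share over all coding genes. H3K9me3 lay within 2 kb of the start of 12 of the 125 genes in KO alone, near the 8.39% of all coding genes. Examples are 2.56 kb at ADAMTS16, 2.89 kb at RXFP3, a receptor of relaxin-family peptides, and 0.858 kb at GDNF, a trophic factor of neurons. It lay there in 1 gene in WT alone (0.114% of all), which was IL7R, with 0 kb in KO and 3.60 kb in WT. H3K27me3 lay at 5 promoters in KO alone (3.02% of all), with 4 kb at C7 and 3.2 kb at ANKH. It lay at 3 in WT alone (1.83% of all), with 2.01 kb at PRLR and 1.60 kb at MYO10. Both counts are near those shares. IL7R and PRLR thus had less of a repressive mark at their starts in KO, whereas ANKH and C7 had more.

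As a check of the labels, H3K4me3 lay at the promoters of KRT8, KRT18, EPCAM and CDH1, 4 of 6 epithelial genes, in both genotypes, and at neither PTPRC nor CD3E, genes of leukocytes. VIM, CDH2 and FN1, genes of mesenchymal cells, had it too. KRT5 and TP63, of basal epithelial cells, had none, and FOXJ1, of ciliated cells, had 0 kb in KO and 2.88 kb in WT. The gene edited, RIOX2, had 3.8 kb of H3K4me3 in KO and 3 kb in WT, so its promoter mark does not report the knockout.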

How the data were processed

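ChIP-seq islands of 4 marks in KO and WT BEAS-2B cells were used. Per the labels and the methods of the study, the authors mapped reads of 75 nt to hg19 by BWA, extended them to 200 bp and sampled the tags of each comparison group down to its smallest sample. The submitters' processing notes name SICER 1.1, whose settings, like its use of the input and the version of BWA, are not given in the sources used here. Deposited islands carry chromosome, start and end and no counts, score or height, so depth and intervals are unknown. All starts and ends lay on a grid of 200 bp, and 0 islands passed the end of a GRCh37 chromosome.

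Covered length, bins and genes were computed with Python 3.11.15, numpy 2.4.6 and pandas 2.3.3 on GENCODE 44 mapped to GRCh37, and figures with matplotlib 3.10.9. The code was tested on simulated data. An island was found in 1 genotype alone when it shared no base with an island of that mark in the other. A promoter was the 2 kb on both sides of the annotated start. For each mark, the genes named are those at the top by difference in covered bases (5 with more in KO and 5 with less), genes with promoter H3K4me3 in 1 genotype alone, and examples from lists by role. 1 marker gene is not reported here. The members and lists were chosen with earlier results of these data known. Alternatives are a factor of 1.5, the gene body alone, 5 kb on both sides of the start, scaled libraries, a minimum island of 1 kb, merging across 1 kb, other limits and bins, 50% of an island shared, the long arm without the clustered protocadherins, and all other chromosomes in place of the long arm. A ratio was taken as moved when it changed by over 1.5 times and as reversed when it crossed 1.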

Additional observations from a re-analysis of the deposited data

How the results depend on the processing

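Of 140 values under alternatives, 112 changed by no more than 1.5 times and kept their direction. This holds for every value with islands of at least 1 kb or with islands within 1 kb merged. Some of the 112 values had little or no room to change. Scaling cancels out of the ratio over the long arm, and clipping bases to the segment left all 8 of its values as they were. The ratio of H3R8me2a in the segment moved to 0.109 in libraries scaled to the same total length and to 0.313 over the whole short arm, and its ratio over that of the long arm to 0.361 over the whole short arm and to 0.102 against all other chromosomes. With scaled libraries the H3K9me3 ratio reversed to 0.309 and the H3K27me3 ratio to 0.939. The H3K9me3 ratio over the rest moved to 0.293 against all other chromosomes. The H3K27me3 ratio over the long arm reversed to 0.980 over the whole short arm and to 0.933 against all other chromosomes. Bins with less in KO came to 95.2% for H3K9me3 and 66.7% for H3K27me3 with scaled libraries, and to 100% for H3R8me2a in bins of 6 Mb. Where 50% of an island had to be shared, islands in KO alone numbered 8 for H3K4me3 and 1 for H3R8me2a.

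Genes with H3K9me3 gain and loss numbered 7 and 41 with scaled libraries and 13 and 3 around the start alone. H3K4me3 losses numbered 9 with scaled libraries, 16 with the factor of 1.5, 11 in the gene body alone and 8 around the start, and its gains 0 with scaled libraries, 2 with the factor of 1.5 and 0 around the start. H3K27me3 losses numbered 4 and H3R8me2a losses 39 around the start, and H3R8me2a gains 2 in the gene body alone. All of these are genes of the segment, and the alternatives were not run over all coding genes. The cause of these shifts was not tested beyond the construction of each alternative. No paired analysis was possible because there was 1 library per mark and genotype, and none could be left out. Islands have no height, so a gene at 0 kb may still carry the mark below the caller's threshold.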
